A study of Mus musculus with 2 samples.

Results

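miR-22 is a microRNA (miRNA), a short RNA that guides Argonaute proteins to messenger RNAs. Its members here were the listed loci whose miRNA name was mmu-miR-22-3p or mmu-miR-22-5p (mmu for mouse, left out below), the mature products of the 3′ and the 5′ arm of the Mir22 hairpin. Both arms were listed in each library, which made 2 of the 197 distinct named miRNAs listed in either library and 2 of the 151 listed in both. The tissue was whole liver. The mice were wild type, of the C57BL/6 strain, 2 to 3 months old and fed without restriction, and they formed 1 group with 2 replicate libraries. No treated, fasted or mutant group was part of the comparison. Whether the replicates are different animals or 1 RNA prepared again is not said in the labels, so the difference between them may be technical. The p-values below hold counting error alone and no spread between replicates. The study's title places the data in work on miRNAs that act on master regulators of metabolism.

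An miRNA hairpin is cut from its primary transcript by Drosha and then by Dicer, which leaves a duplex of the 5p and 3p arms. Usually 1 arm is kept in Argonaute and pairs with targets mainly through its seed, bases 2 to 8 from its 5′ end, while the other arm is degraded. miR-22 is expressed in many tissues and is known for roles in heart growth and in hepatic lipid and glucose handling. Sirt1, an NAD-dependent deacetylase, and Hdac4, a histone deacetylase, are among its known targets.

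The mature sequences are shown first because the arm and its seed define what was counted. Capitals mark bases 2 to 8, and each is written 5′ to 3′ as the deposited files list it.
miR-22-3p, replicate 1 and replicate 2: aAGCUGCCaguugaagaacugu
miR-22-5p, replicate 1: aGUUCUUCaguggcaagc
miR-22-5p, replicate 2: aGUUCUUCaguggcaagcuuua
The 3p arm had the same 22 bases in both libraries and matched the RefSeq entry for GRCm38.p6 exactly. The 5p arm was listed with 18 bases in replicate 1 and with 22 in replicate 2, where it matched RefSeq. Its shorter form ended 4 bases earlier and kept the same start and seed. Exact matches over the whole mature sequence were the smaller part of all listed miRNAs, with 49 of 142 names that have a RefSeq entry in replicate 1 and 58 of 157 in replicate 2. The seed matched in 128 and 140 of them.

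No other of the 1674 distinct mature mouse sequences in the RefSeq table shared bases 2 to 8 or bases 2 to 7 with miR-22-3p. At most 14 of its positions were identical in another sequence when both were aligned at their first base. Its mature sequence occurred at 1 locus in that table. miR-22-5p shared bases 2 to 7 with a pair of sequences, shown here with bases 2 to 8 in capitals, neither of which was listed in these libraries.
miR-6935-3p: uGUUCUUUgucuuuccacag
miR-7092-3p: uGUUCUUUguuuuguuugccuuag

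Mir22 lies on the plus strand of mouse chromosome 11. In GRCm38 miR-22-3p was listed at chr11:75463772-75463793, and miR-22-5p at chr11:75463734-75463751 in replicate 1 and chr11:75463734-75463755 in replicate 2. The RefSeq hairpin of 95 bases spans chr11:75463716-75463810. In GENCODE M21 it sits inside exon 2 of Mir22hg-202, a transcript of the non-coding host gene Mir22hg. This exon has 165 bases, of which 23 precede the hairpin and 47 follow it. The host gene spans 5138 bases, and the hairpin begins 2177 bases after its start. The same exon belongs to Tlcd2-203, a non-coding transcript of the protein-coding gene Tlcd2. The files accordingly annotate the locus as exonic in both Mir22hg and Tlcd2. The hairpin overlapped no coding sequence of Tlcd2, which begins 4395 bases downstream of the hairpin's end.

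**Figure D1:**
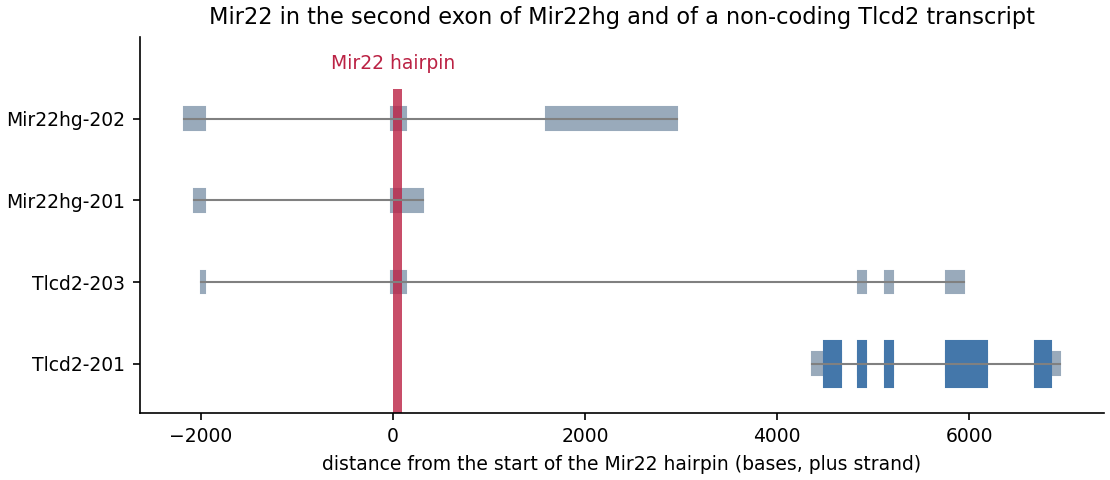
Exons (grey boxes) and coding sequence (tall blue boxes) of 4 GENCODE M21 transcripts around Mir22, with the x axis in bases from the start of the hairpin (red band). The hairpin falls in exon 2 of Mir22hg-202 and of Tlcd2-203, and the coding sequence of Tlcd2-201 begins 4395 bases after the hairpin ends.

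The whole RefSeq hairpin is shown because both arms and the stretch between them bear on the arm counts, with the arms in capitals.
Mir22 hairpin, chr11:75463716-75463810, plus strand: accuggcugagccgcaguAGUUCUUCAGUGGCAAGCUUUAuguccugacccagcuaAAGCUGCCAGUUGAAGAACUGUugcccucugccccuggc
The arms occupy positions 19 to 40 and 57 to 78 of the hairpin, and 16 bases separate them. RNAfold predicted 36 base pairs in the hairpin, of which 19 joined the arms, as 8 G-C, 10 A-U and 1 G-U pairs. Each arm had a 3′ overhang of 2 bases beyond its partner's first base, the form that Drosha and Dicer typically leave. All 7 seed bases of the 3p arm and all 7 of the 5p arm were paired in this fold.

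The predicted minimum free energy of the RefSeq hairpin was -41.9 kcal/mol, or -0.44 per base. Among the 103 hairpins listed in either library that have a RefSeq entry, 35 had a lower total energy and 48 a lower energy per base, and the medians were -37.6 and -0.43. Its G+C content of 55.8% was exceeded by 27 of them. Its energy per base thus lay near the median of these hairpins, and its G+C content lay above their median of 50.5%.

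The files also list a hairpin sequence per locus, and these differ from RefSeq between the arms. Capitals mark the bases that differ from RefSeq in the 62 bases at chr11:75463732-75463793.
Listed with miR-22-3p, replicate 1: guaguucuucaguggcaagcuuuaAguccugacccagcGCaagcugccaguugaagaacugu
Listed with miR-22-3p, replicate 2: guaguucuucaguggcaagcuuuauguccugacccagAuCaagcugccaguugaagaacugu
With positions counted from 1 at the 5′ end of the RefSeq hairpin and the RefSeq base first, the differences were U41A, U55G and A56C in replicate 1 and C54A and A56C in replicate 2. The hairpins listed with miR-22-5p carried the same differences in each library. All of them lay outside both arms. Such differences were common in the files: 100 of 139 listed hairpins in replicate 1 (71.9%) and 114 of 151 in replicate 2 (75.5%) differed from RefSeq in at least 1 base. Within the listed arm 0.465% and 0.640% of bases differed, against 3.31% and 3.28% elsewhere in the listed hairpin. No source used here tells how the hairpin sequences were made, and the letters between the arms were therefore not read as the sequence of these mice. Folded as listed, the 62 bases had energies of -26.4 and -25.6 kcal/mol (mean -26.0 ± 0.566, SD, n = 2), and -26.8 with the RefSeq letters.

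miR-22-3p was the most counted miRNA in both libraries. It had 102898 counts in replicate 1, or 33.6% of the 306351 counts of named miRNAs (exact 95% interval 33.4 to 33.8). In replicate 2 it had 182550 counts, or 33.9% of 538023 (33.8 to 34.1). The mean share was 33.8% ± 0.241 (SD, n = 2). The shares of the libraries were close, although replicate 2 was the deeper. These are shares of reads, which were not calibrated against known amounts of RNA, and in whole liver more cells of a type and more RNA per cell cannot be told apart. Intervals cover counting error only.

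The next miRNAs were far below it. miR-92a-3p, counted here at its locus in the oncogenic miR-17/92 cluster, followed with 27148 and 72200 counts (11.1% ± 3.22, SD, n = 2). miR-26a-5p came next with 19644 and 32150 (6.19% ± 0.309). miR-191-5p stood at 4.81% ± 0.135, miR-30a-5p at 4.54% ± 0.668 and miR-30d-5p at 4.09% ± 0.538. miR-22-3p exceeded miR-92a-3p 3.79-fold in replicate 1 and 2.53-fold in replicate 2 (mean 3.16 ± 0.892). The fold differed between the libraries mainly because miR-92a-3p did, at 13.3% and 20.3% of the counts left when miR-22-3p was set aside. The gap to the next miRNA was larger than the spread of either between the libraries. It took the 7 next miRNAs in replicate 1 and the 6 next in replicate 2 to exceed miR-22-3p in summed counts. The median named miRNA held 0.0196% and 0.0104% of counts, so that miR-22-3p stood 1715-fold and 3260-fold above it.

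miR-22-5p, the arm that is usually degraded, had 8 counts in replicate 1 and 14 in replicate 2. This was 0.00261% (0.00113 to 0.00515) and 0.00260% (0.00142 to 0.00437) of named counts, and ranked it 116 of 151. Both counts are small, and the intervals, not the close agreement of the shares, give their precision. Its neighbours in the order of mean level were miR-214-3p (8 and 16 counts) and miR-330-3p (9 and 13) just above, and miR-99b-5p (10 and 10) and miR-214-5p (7 and 15) just below. The intervals of 39 of the 150 other miRNAs overlapped that of miR-22-5p in both libraries, so that its rank is not settled at this depth.

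**Figure D2:**
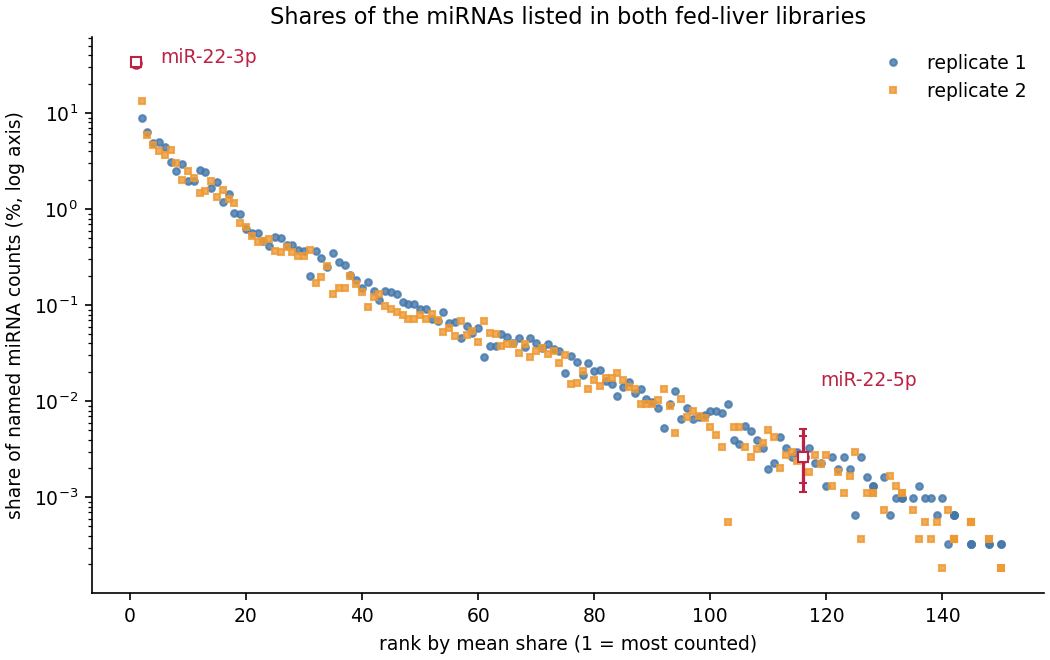
Share of named counts (log axis, %) of the 151 miRNAs listed in both libraries against their rank by mean share, with circles for replicate 1 and squares for replicate 2. The arms of miR-22 are in red with exact 95% intervals, at 33.6% and 33.9% for 3p and 0.00261% and 0.00260% for 5p.

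The arms of Mir22 thus differed 12862-fold in replicate 1 and 13039-fold in replicate 2. The 5p arm took 0.00777% of the hairpin's 102906 counts in replicate 1 (0.00336 to 0.0153) and 0.00767% of 182564 in replicate 2 (0.00419 to 0.0129). The difference between the libraries did not pass Fisher's exact test (adjusted p = 1.0, 2-sided, Benjamini-Hochberg over 47 hairpins), while 4 of the 47 hairpins did, or 8.51%. This share of the less counted arm was the lowest of the 47 hairpins tested, those that had both of their arms named and 20 or more counts per library, whose median was 1.29%.

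The next lowest shares were those of Mir181a-2, whose 3p arm had 1 of 9516 and 2 of 22353 counts (mean 0.00973%), and of Mir122, source of the hepatocyte miRNA miR-122, whose 3p arm had 3 of 7671 and 6 of 16362 (mean 0.0379%). Their intervals in replicate 1 ran from 0.000266 to 0.0585% and from 0.00807 to 0.114%, and both overlapped that of Mir22. In replicate 2 the interval of Mir181a-2 overlapped it and that of Mir122 (0.0135 to 0.0798%) did not. All counts of miR-181a-5p were kept at Mir181a-2, although Mir181a-1 was listed too, through miR-181a-1-3p with 4 and 6 counts. Part of the 5p reads may come from Mir181a-1, so the share of Mir181a-2 may be understated. Of the 46 other hairpins, 5 overlapped Mir22 in both libraries, 9 in 1 library and 32 in neither. A share as low as that of Mir22 can be resolved only in a deeply counted hairpin. Among the hairpins ranked here, besides Mir22 only Mir30a and Mir92-1 exceeded a total of 10000 counts in each library. The miRNAs miR-26a-5p, miR-191-5p and miR-30d-5p also exceeded it, but their other arm was not listed in both libraries. Their hairpins were therefore not ranked, and whether the share of Mir22 is lower than theirs was not tested.

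**Figure D3:**
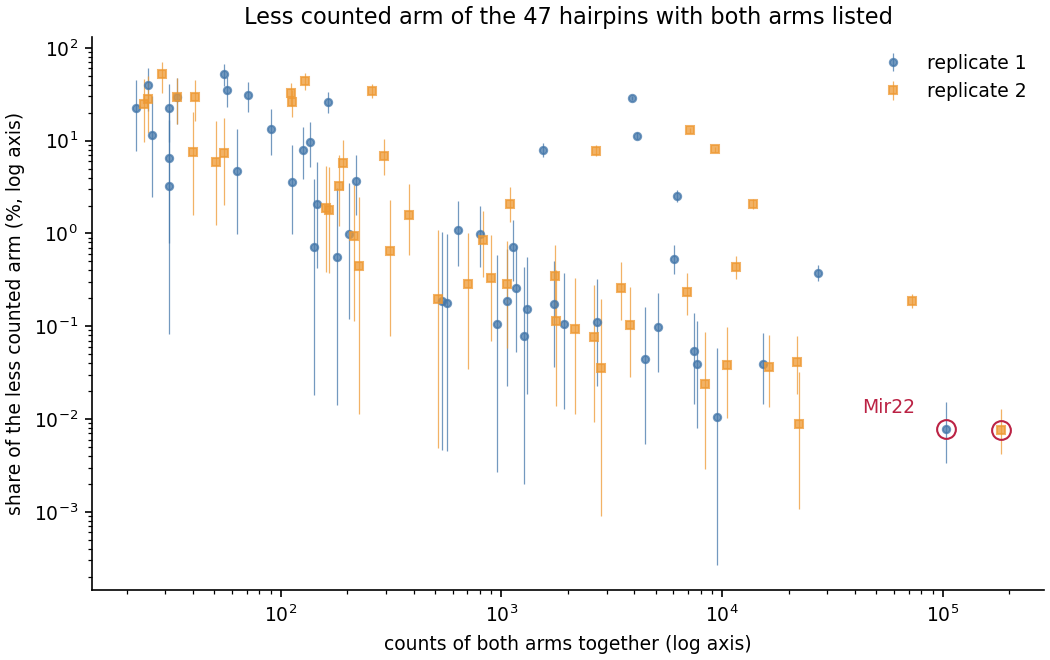
Share of the less counted arm (log axis, %) against the counts of both arms together (log axis) in 47 hairpins, with exact 95% intervals, circles for replicate 1 and squares for replicate 2. Mir22, ringed in red, lies lowest by mean share and farthest to the right, at 0.00777% and 0.00767%.

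By textbook accounts, the arm whose 5′ end is less firmly paired, and often one that begins with U, tends to be kept. In the RefSeq fold, the first 4 bases of miR-22-3p made 10 hydrogen bonds and those of miR-22-5p made 9, counting 3 for a G-C pair and 2 for an A-U or G-U pair. By this count over 4 bases the kept arm of Mir22 had the slightly firmer end. The difference was 1 bond, and its direction depends on how many bases are counted. Both arms of Mir22 begin with A. Of the 32 tested hairpins with a RefSeq entry for both arms, the more counted arm had fewer bonds than the other in 14, as many in 7 and more in 11. It began with U in 23 of them and with A in 3, Mir22, Mir181a-2 and Mir107. These are counts over predicted folds, with no test.

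The first base of miR-22-3p weighed on the whole library. Of the listed names, 24.2% in replicate 1 and 25.7% in replicate 2 began with A, and 38.8% and 39.9% with U. In counts, those beginning with A took 40.7% and 42.3%. Without the miR-22 arms they took 10.7% and 12.6% of the remaining counts, and those beginning with U took 73.6% and 71.8%. The most counted other miRNAs that begin with A were miR-181a-5p at 3.63% ± 0.741 and miR-378a-3p, encoded in Ppargc1b, at 2.25% ± 0.383.

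The same held for the class of locus. The files called 17 names in replicate 1 and 15 in replicate 2 exonic, 2 of them in each library also intronic, and all of these lay in an exon of a protein-coding gene. The miR-22 arms supplied 98.3% and 98.5% of the counts of this class, which came to 34.2% and 34.5% of all named counts. All other exonic miRNAs together had 1770 and 2819 counts. The most counted of them were miR-21a-5p, in an exon of Vmp1, at 0.252% ± 0.00397, and miR-93-5p, in an exon of Mcm7, at 0.118% ± 0.0301. A non-coding exon alone did not earn the label. The files annotate miR-181b-5p, miR-29c-5p and miR-29c-3p in such an exon and did not call them exonic. By GENCODE M21, 27 of the 151 miRNAs lay in an exon of a long non-coding gene on the same strand. After miR-22-3p the most counted of these, each at the locus used, were miR-92a-3p (Mir17hg), miR-191-5p (4833445I07Rik), miR-30d-5p (Gm20732), miR-122-5p (AC157910.3) and let-7a-5p (6720427I07Rik).

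**Figure D4:**
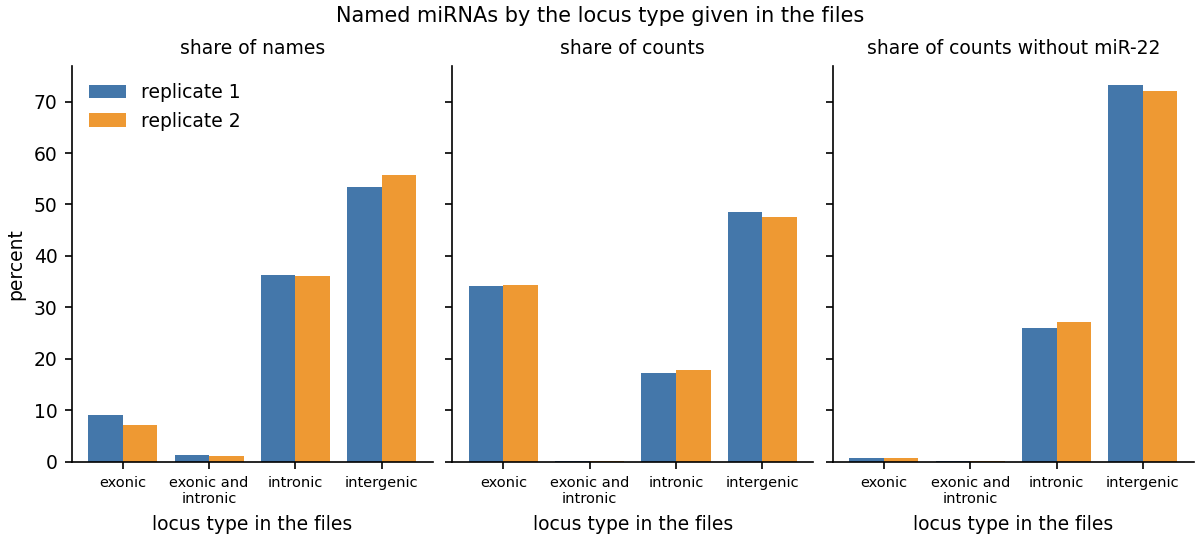
Percent of named miRNAs (left), of their counts (middle) and of counts without the miR-22 arms (right) by the locus type in the files, in replicate 1 (blue) and replicate 2 (orange). Exonic loci hold about as many counts as miR-22-3p does, 34.1% and 34.4%, and fall to 0.803% and 0.739% of the counts that remain without miR-22.

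On chromosome 11 the libraries listed 18 and 19 names. miR-22-3p held 88.3% and 88.9% of that chromosome's counts, and the names other than the miR-22 arms 13600 and 22688 counts. The nearest listed miRNA locus was Mir132, 290 kb upstream on the same strand, with 34 counts of miR-132-3p and 4 of miR-132-5p in replicate 2 and none listed in replicate 1. The next nearest was Mir423 on the minus strand, 1614 kb away, whose miR-423-5p had 6032 and 11477 counts. No listed miRNA thus lay in the host transcript beside Mir22.

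Because there was 1 group, the remaining comparison was between the libraries themselves, by an exact binomial test of counts that covers counting error alone. With effective library sizes from the trimmed mean of M values (TMM), miR-22-3p was higher in replicate 2 by 0.18 on the log2 scale (SE 0.0056 from counting, adjusted p = 8.3e-221). By this test 58 of the 131 miRNAs tested differed, or 44.3%, and 28 of them, or 21.4%, were higher. With the totals of named counts in place of TMM the difference was 0.015 (adjusted p = 0.021), with 48.9% of the 131 past the test, as the median of all tested miRNAs moved from -0.025 to -0.19. With TMM the ratio lay below the median absolute log2 ratio of all tested, 0.35, which includes miRNAs with few counts. An absolute ratio smaller than that of miR-22-3p was found in 43 of the 131 with TMM and in 3 with library totals. Of the 5 miRNAs ranked next, miR-92a-3p moved more with TMM (0.76). The others moved less: miR-26a-5p (0.062), miR-191-5p (0.11), miR-30a-5p (-0.14) and miR-30d-5p (-0.11). miR-22-5p did not pass the test, with a log2 ratio of 0.12 ± 0.62 (SE from counting, adjusted p = 1.0), and its sign turned to -0.042 with library totals.

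Over 2 libraries, likeness of pattern can only mean a similar ratio. Of the 29 other miRNAs with at least 1000 counts in each library, the nearest in log2 ratio to miR-22-3p were miR-148a-3p (1413 and 2481 counts, ratio 0.16) and miR-125b-5p (1909 and 3477, ratio 0.22). miR-191-5p (0.11), miR-23b-3p (0.078) and miR-423-5p (0.28) followed. They were picked by ratio, so it follows from the choice that their shares were close in the libraries, for example 0.461% in each for miR-148a-3p.

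**Figure D5:**
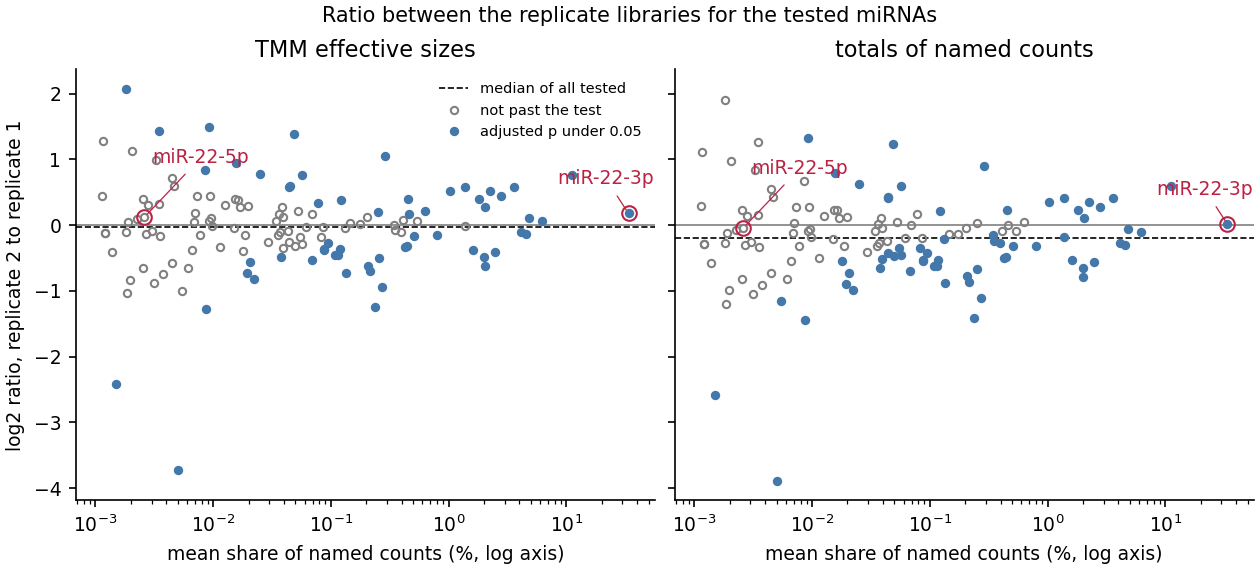
Log2 ratio of replicate 2 to replicate 1 against mean share (log axis, %) for the 131 miRNAs tested, with TMM (left) and with totals of named counts (right). Filled points have an adjusted p under 0.05, the dashed line is the median, and miR-22-3p lies at 0.18 and 0.015.

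A chosen list of 15 other miRNAs with known roles in hepatic lipid or glucose handling had fewer counts together than miR-22-3p alone. The list does not hold every miRNA with such a role, and the sum depends on the choice. Of these 15 miRNAs, 10 were listed in replicate 1 and 13 in replicate 2, with 51361 and 100621 counts together, or 16.8% and 18.7%. miR-22-3p exceeded this sum 2.00-fold and 1.81-fold. The most counted members were miR-26a-5p (6.19% ± 0.309), miR-181a-5p (3.63% ± 0.741) and miR-122-5p (2.77% ± 0.380). Between the libraries, 6 of the 10 tested members were higher in replicate 2, 0 were lower and 4 did not pass, beside 21.4% higher and 22.9% lower over all 131 tested. Their median log2 ratio was 0.13, beside -0.025 over all tested. The test holds counting error alone, so deeply counted miRNAs pass at small ratios, as miR-26a-5p did at 0.062 (19644 and 32150 counts). The members and all tested were not matched for depth. With library totals 4 members were higher and 1 was lower, beside 14.5% higher and 34.4% lower over all tested, and the medians were -0.030 for the members and -0.19 for all.

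The labelled tissue was checked on the hepatocyte markers miR-122-5p, miR-192-5p and miR-194-5p, which were all listed and together took 4.33% and 4.65% of named counts. Markers of other cells were lower in sum. Endothelial markers (2 of 2 listed) took 0.0444% and 0.0355%, immune markers (2 of 5) 0.341% and 0.212%, and biliary markers (1 of 3) 0.0196% and 0.0303%. Stellate and mesenchymal markers took 0.554% (3 of 5 listed) and 0.342% (4 of 5). The hepatocyte sum rested mainly on miR-122-5p, at 2.50% and 3.04%. Alone, miR-192-5p (1.46% and 1.28%) stood above the stellate and mesenchymal sum, and miR-194-5p (0.366% and 0.329%) stood below it. Of 4 erythroid markers 1 was listed, with 14 counts in replicate 2, and of 3 muscle markers 0. The part of these cell types in the level of miR-22-3p was not tested. The highest hepatocyte marker, miR-122-5p, ranked 8 by mean share, at 2.77%. It stood below miR-92a-3p at 11.1% and miR-181a-5p at 3.63%. The check compared chosen markers only, and whether the profile as a whole is typical of liver was not tested.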

How the data were processed

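Small RNA libraries were made from 1 µg of total liver RNA with the TruSeq small RNA kit of Illumina, per the labels' protocols. Bowtie 1.0.1, cutadapt 1.5, FastQC 0.11.2 and the build GRCm38 (mm10) are named in the submitters' processing notes. How loci were called and filtered was not given in the sources used here. Each of the deposited files holds raw whole-number read counts per called locus, not normalised.

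Replicate 1 listed 200 loci with 323447 counts and replicate 2 listed 220 with 553325. Loci without a miRNA name (5.02% and 2.46% of counts) were kept out of totals and tests. Where a mature name had more than 1 locus, only its most counted locus was kept. An unlisted miRNA was treated as not listed. File positions count from 0 and were raised by 1. Sequences are from the files and from RefSeq (GRCm38.p6), and annotation is from GENCODE M21.

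Shares carry exact Clopper-Pearson 95% intervals. Libraries were compared by a 2-sided exact binomial test on miRNAs listed in both with at least 10 counts summed, at TMM effective sizes (edgeR 4.0.16), with Benjamini-Hochberg adjustment at 0.05 and a prior count of 0.5 in log2 ratios. Arm shares were compared by Fisher's exact test. With 1 group there was no contrast for a quasi-likelihood test. DESeq2 1.42.0 size factors were an alternative. Hairpins were folded with RNAfold 2.7.2 at 37 °C. The tests were checked on data simulated with counting error alone and known library totals. That check does not cover TMM scaling or spread between replicates.

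The members, the lists and the naming rule were chosen with earlier results of these data known. The rule names both miR-22 arms, the 5 miRNAs ranked next, the 2 on each side of miR-22-5p, sharers of a seed, the 5 nearest in ratio, the hairpins and loci nearest to Mir22, the leading miRNAs in non-coding exons, and the 3 highest of the metabolic list. The most counted miRNAs that begin with A or lie in coding-gene exons, miR-181a-1-3p, and the Mir107, Mir30a and Mir92-1 hairpins, were chosen once values had been seen. The design did not foresee that the listed hairpins differ from RefSeq.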

Additional observations from a re-analysis of the deposited data

How the results depend on the processing

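The share of miR-22-3p was 32.4% over all listed loci and 38.0% without miR-92a-3p in the denominator, and moved by less than the spread between libraries with all named loci or with miRNAs listed in both. Leaving 1 library out returns the other's value given above and is no further check. The share of miR-22-3p then ranged from 33.6% to 33.9%, and that of miR-22-5p from 0.00260% to 0.00261%. The 5p share of the hairpin ranged from 0.00767% to 0.00777%, and the fold over miR-92a-3p from 2.53 to 3.79. The share of miR-22-5p was 0.00260%, 0.00250% and 0.00262% with all named loci, all listed loci and miRNAs listed in both, shifts far inside its counting interval. The mean fold over miR-92a-3p was 3.08 with all loci of a mature name summed. No test between libraries is possible with 1 of them.

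miR-22-3p stayed higher in replicate 2, with log2 ratios from 0.015 with library totals to 0.23 with at least 50 counts, and adjusted p in the exact binomial test from 0.021 downward. For miR-22-5p the sign turned to -0.042 with library totals, as the scaling itself shifts all ratios by -0.16. It was not among those tested with at least 50 counts. The listed hairpin's energy was -25.4 kcal/mol without dangling ends, -26.8 with RefSeq letters, an alternative chosen after seeing the data, and -41.9 for the longer RefSeq hairpin. The number of miRNAs that differed ranged from 55 to 76, over sets of different size. It was 55 of 100 with at least 50 counts, 57 of 151 with no filter and 76 of 149 with unlisted miRNAs as 0. The 8 and 14 counts of the 5p arm limit the precision of its share and of the arm ratio.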

Other observations

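Because miR-22-3p held about the same share in both libraries, setting it aside raised the share of every other miRNA by nearly the same factor, 1.51 in each. Its length of 22 bases was that of 58 of 165 listed names in replicate 1 and 73 of 183 in replicate 2. Names of that length took 56.1% and 53.3% of counts, and 33.8% and 29.4% of the counts that remained without miR-22-3p. The G+C content of miR-22-3p, 45.5%, was below the median of 50% over listed names in each library, with 47 and 55 names lower and 11 and 13 at the same value, itself included.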
